A study of Homo sapiens with 12 samples.

Results

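The genes described here encode 9 proteins of the epithelial tight junction and were chosen by name, with earlier results of these data known. They are the claudins CLDN1, CLDN4 and CLDN7, the other membrane proteins OCLN, MARVELD2 and F11R, and the cytoplasmic proteins TJP1, TJP3 and CGN. Each of the 9 was found as a single accession in a deposited count table of 29094 RefSeq accessions, in which 25020 symbols could be matched. All 9 passed the filter on low counts that left 13424 genes for testing, but only 6 of them gave a firm measurement.

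Messenger RNA was sequenced in MCF10AT, a human breast cell line of epithelial origin transformed by HRasG12V, an activated HRAS, which all groups carry. EP300 KD1 and EP300 KD2 cells had each been transduced with a lentivirus expressing a different shRNA (hairpin) against EP300, and NS1 and NS2 cells with non-silencing controls, after which all 4 groups were selected with puromycin. There were 3 libraries in each group, 12 in all, and each hairpin was compared with the control of the same number, since the labels speak of corresponding controls without naming them. The labels do not say whether a line was a pool or 1 clone, nor whether the 3 libraries of a group came from separate cultures. The p-values below therefore reflect no more than the spread among these libraries, which may be of technical origin.

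Tight junctions seal the space between neighbouring epithelial cells near their apical side. Claudins form the strands of the seal and set which ions and solutes pass, occludin and tricellulin (the product of MARVELD2) join these strands, and junctional adhesion molecules such as the product of F11R sit beside them. Scaffold proteins of the zonula occludens family, encoded by TJP1 and TJP3, and cingulin, encoded by CGN, connect the strands to the actin cytoskeleton. EP300 encodes the acetyltransferase p300, a coactivator of transcription.

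The start regions of 5 genes are shown because all of them fell with both hairpins, so that their letters can be set beside the values below. Each window is RefSeq sequence of GRCh38.p14 on the strand of its gene, from 250 bases before a start site to 50 bases from it on. CLDN1 is given at chr3:190322397-190322696 (minus strand), TJP3 at chr19:3708134-3708433 and at chr19:3721487-3721786 (plus strand), CGN at chr1:151511137-151511436 (plus strand), CLDN7 at chr17:7263164-7263463 and at chr17:7262429-7262728 (minus strand) and CLDN4 at chr7:73830746-73831045 (plus strand). Capitals mark the letters CACCTG or CAGGTG (an E-box of the kind bound by SNAI and ZEB repressors), AACCGG or CCGGTT (the core recognised by Grainyhead-like factors) and TGACTCA or TGAGTCA (an AP-1 site).
CLDN1: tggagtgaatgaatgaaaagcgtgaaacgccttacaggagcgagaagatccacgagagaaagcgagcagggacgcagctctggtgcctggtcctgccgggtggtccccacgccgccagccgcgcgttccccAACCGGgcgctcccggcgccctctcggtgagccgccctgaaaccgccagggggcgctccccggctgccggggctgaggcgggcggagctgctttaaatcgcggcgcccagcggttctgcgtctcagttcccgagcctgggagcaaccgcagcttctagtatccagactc
TJP3, upstream start: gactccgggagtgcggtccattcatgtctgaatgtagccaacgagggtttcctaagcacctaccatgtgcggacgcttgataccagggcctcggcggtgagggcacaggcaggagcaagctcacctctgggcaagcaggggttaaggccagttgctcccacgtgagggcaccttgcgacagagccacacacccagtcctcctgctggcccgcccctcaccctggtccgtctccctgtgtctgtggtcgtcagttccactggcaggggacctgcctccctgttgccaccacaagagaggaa
TJP3, downstream start: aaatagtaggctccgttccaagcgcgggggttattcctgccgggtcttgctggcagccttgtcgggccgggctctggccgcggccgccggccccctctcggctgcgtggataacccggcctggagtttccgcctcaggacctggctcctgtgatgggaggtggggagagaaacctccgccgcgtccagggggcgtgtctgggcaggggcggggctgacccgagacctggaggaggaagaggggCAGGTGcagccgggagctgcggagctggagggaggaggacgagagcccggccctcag
CGN: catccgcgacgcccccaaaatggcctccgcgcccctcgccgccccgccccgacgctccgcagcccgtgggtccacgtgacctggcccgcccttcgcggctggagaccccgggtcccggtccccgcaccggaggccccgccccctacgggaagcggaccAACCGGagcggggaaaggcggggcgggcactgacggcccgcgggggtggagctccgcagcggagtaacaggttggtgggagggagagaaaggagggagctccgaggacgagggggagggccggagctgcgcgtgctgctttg
CLDN7, upstream start: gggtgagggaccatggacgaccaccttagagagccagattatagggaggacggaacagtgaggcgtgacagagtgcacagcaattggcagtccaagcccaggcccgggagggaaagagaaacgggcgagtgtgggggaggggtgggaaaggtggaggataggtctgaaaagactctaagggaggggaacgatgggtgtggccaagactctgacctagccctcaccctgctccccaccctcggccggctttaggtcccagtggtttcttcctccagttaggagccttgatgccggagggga
CLDN7, downstream start: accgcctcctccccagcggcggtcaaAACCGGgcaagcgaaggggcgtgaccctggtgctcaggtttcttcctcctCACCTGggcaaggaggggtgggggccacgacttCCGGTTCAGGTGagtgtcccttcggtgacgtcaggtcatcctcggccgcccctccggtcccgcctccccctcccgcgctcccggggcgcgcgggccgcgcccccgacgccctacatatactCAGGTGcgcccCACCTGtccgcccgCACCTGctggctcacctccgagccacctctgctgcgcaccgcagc
CLDN4: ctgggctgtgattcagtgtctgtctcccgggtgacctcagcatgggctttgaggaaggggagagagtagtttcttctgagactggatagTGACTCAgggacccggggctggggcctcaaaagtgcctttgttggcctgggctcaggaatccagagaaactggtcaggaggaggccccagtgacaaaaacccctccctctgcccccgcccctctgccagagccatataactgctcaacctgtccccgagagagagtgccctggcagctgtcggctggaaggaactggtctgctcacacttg
The upstream windows of CLDN7 and TJP3 hold none of these letters. A window was present for 8 of the 9 genes, 14 windows in all. CACCTG or its complement CAGGTG stood in 5 of these 14 windows (CLDN7, OCLN, TJP1 and TJP3), against 20.6% of all 35116 windows of the same length. AACCGG or CCGGTT stood in 5 of 14 (CLDN1, CLDN7, OCLN, MARVELD2 and CGN), against 7.23% of all windows, and TGACTCA or TGAGTCA in 1 of 14 (CLDN4), against 4.95%. TATAAA or TTTATA, the letters of a TATA box, stood in 0 of 14, against 11.5%. The windows of these genes had a median GC content of 67.5%, against 58.7% over all windows, and the part of GC content in these shares was not tested. Both strands were searched, none of the motifs shares letters with another in these windows, and a match is a description, not a binding site.

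Each library held between 31396653 and 45606950 counts. Levels are given as CPM, counts scaled to the library total, here after TMM scaling, which corrects these totals for composition. Adjusted p-values are from edgeR's quasi-likelihood test over all 13424 genes with Benjamini-Hochberg adjustment, and a change was called at an adjusted p under 0.05. EP300 itself had 107.9, 106 and 108 CPM in EP300 KD1, against 171, 177 and 167 CPM in NS1, and 95.1, 99.9 and 92.3 CPM in EP300 KD2, against 165, 180.3 and 177 CPM in NS2. It thus stood at 62.4% of the control level with the first hairpin and at 55.0% with the second, and the groups did not overlap. All 12 markers of mammary epithelium were detected, although KRT14, KRT8 and KRT19 were sparse. Their summed level was 6296 to 6408 CPM in EP300 KD1, against 8173 to 8416 CPM in NS1, and 5268 to 5395 CPM in EP300 KD2, against 9394 to 9577 CPM in NS2, with 8 of 12 lower and 3 higher with the first hairpin and 10 lower and 0 higher with the second. Of 10 fibroblast markers, 3 (COL1A2, COL3A1 and LUM) were at 0 in all libraries, and the sum was 104 to 109 CPM in EP300 KD1, against 51.4 to 52.9 CPM in NS1, and 38.5 to 40.9 CPM in EP300 KD2, against 33.3 to 35.9 CPM in NS2. Of the 6 tested, 5 rose and FBLN1 fell with the first hairpin, and 4 rose and FBLN1 fell with the second. The summed level of 9 leukocyte markers was 67.6 to 74.7 CPM in EP300 KD1, against 52.4 to 63.4 CPM in NS1, and 37.9 to 40.2 CPM in EP300 KD2, against 65.9 to 67.7 CPM in NS2, and of the 3 tested CD14 fell and CD68 rose with each hairpin. That of 7 endothelial markers, with EGFL7 at 0, was 13.2 to 15.8 CPM in EP300 KD1, against 28.8 to 32.9 CPM in NS1, and 6.40 to 7.04 CPM in EP300 KD2, against 38.6 to 40.6 CPM in NS2. PECAM1 alone fell with each (log2 -1.60 and -2.84), while TEK rose with each and KDR with the first. That of 7 neural markers, with STMN2 and ELAVL4 at 0, was 105 to 117 CPM in EP300 KD1, against 57.1 to 63.3 CPM in NS1, and 117 to 125 CPM in EP300 KD2, against 42.8 to 44.0 CPM in NS2. TUBB3 rose with each hairpin, and MAP2 fell with the first and rose with the second. The part of these shifts in the results below was not tested. Called markers are to be read against the shares of all genes tested. With the first hairpin 32.3% of these fell and 32.6% rose, and with the second 29.9% fell and 27.9% rose.

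Of the 9 tight junction genes, 6 fell with the first hairpin and 8 with the second, and 0 rose with either. The background is high, since 32.3% of the 13424 genes tested fell and 32.6% rose with the first hairpin, and 29.9% fell and 27.9% rose with the second. All libraries of the shRNA group lay below all of the control for 6 of the 9 genes with the first hairpin, against 33.8% of all genes, and for 7 with the second, against 32.6%. TJP1 went the other way with the first hairpin, where all its libraries lay above the control (3.22 to 3.53 CPM, against 2.49 to 2.89 CPM). The median log2 fold change of the 9 was -0.56 with the first hairpin, against -0.01 over all genes tested, and -0.86 with the second, against -0.00. The 6 genes that fell with both were CLDN1, CLDN4, CLDN7, F11R, TJP3 and CGN, and 17.3% of all genes tested did so. These are also the 6 that are well counted, so that the count says little of OCLN, MARVELD2 and TJP1. With the second hairpin the split of all calls depends on the scaling, with 51.8% of calls lower after TMM, 42.0% with upper-quartile factors, 38.7% with library totals alone and 42.5% without the filter on low counts. In RNA from whole cultures, fewer cells with a message and less message per cell cannot be told apart.

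**Figure D1:**
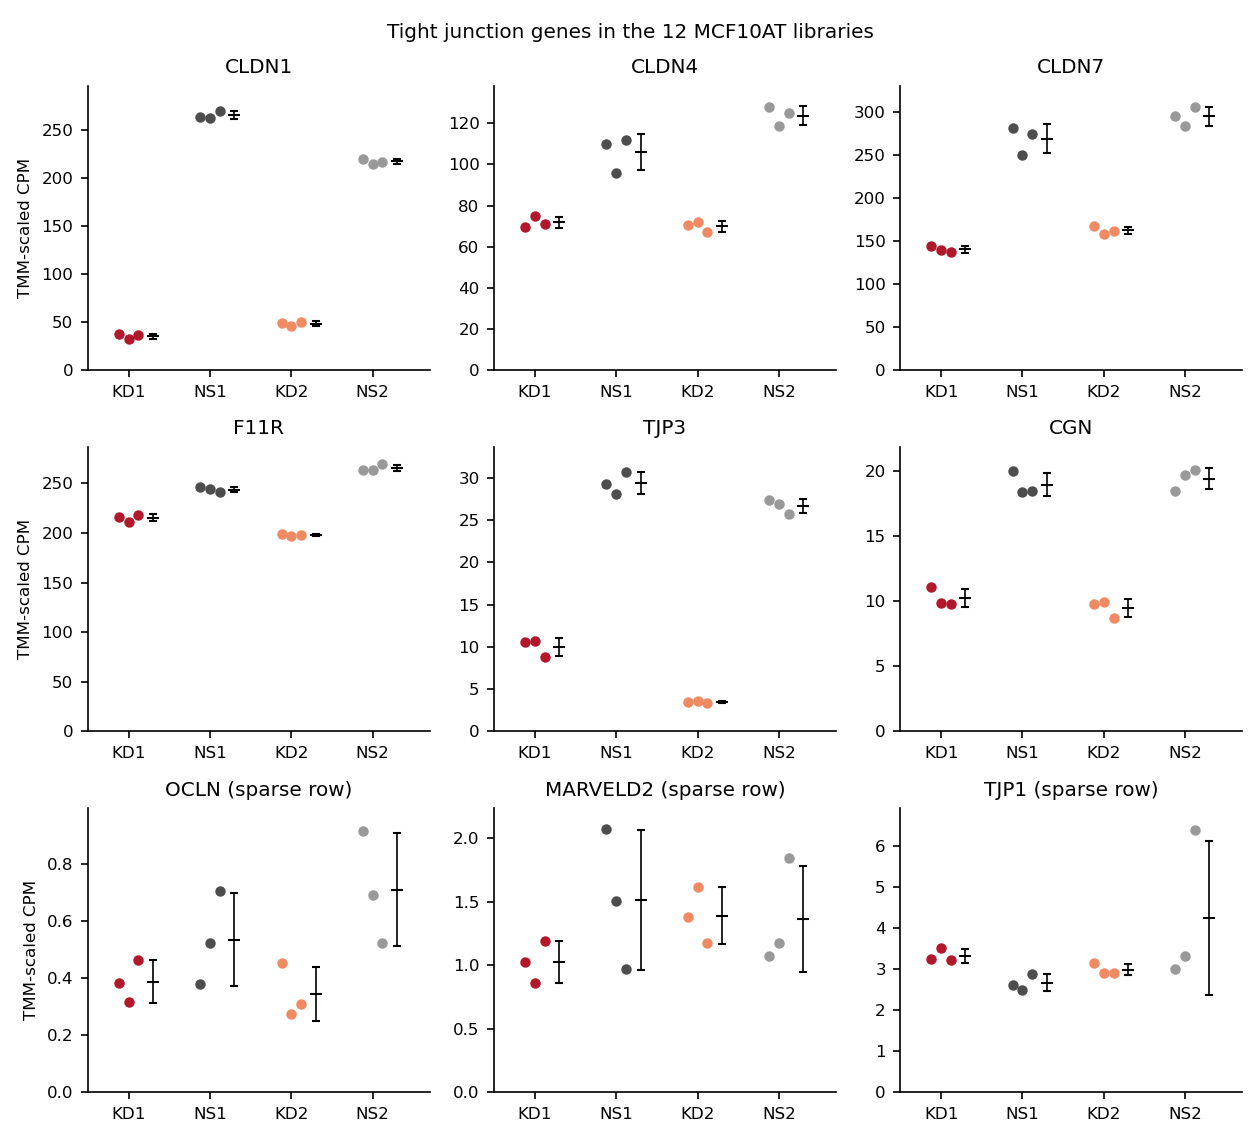
TMM-scaled CPM of the 9 tight junction genes in each library (points) with the mean and SD of each group of 3 (bars), EP300 shRNA groups to the left of their controls. In the upper 6 panels all KD1 and KD2 points lie below the points of their own control. The lower 3 panels reach at most 6.39 CPM. In them the KD2 points of OCLN lie below those of NS2, and the KD1 points of TJP1 lie above those of NS1. The other shRNA groups of these panels overlap their own control.

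CLDN1, a claudin that seals the barrier of skin and of other epithelia, fell most among the 3 claudins. Its level was 37.4, 32.3 and 36.8 CPM in EP300 KD1, against 264, 263 and 269 CPM in NS1. With the second hairpin it was 49.2, 46.0 and 50.5 CPM in EP300 KD2, against 219.8, 215 and 216 CPM in NS2. All 6 shRNA libraries lay far below all 6 controls, at 13.4% of the control mean with the first hairpin and 22.4% with the second. The log2 fold change was -2.90 ± 0.04 (SE, edgeR adjusted p = 1.1e-20) with the first hairpin and -2.16 ± 0.04 (edgeR adjusted p = 6.2e-19) with the second. Among the 13424 genes tested, 109 (0.812%) had a lower log2 fold change than CLDN1 with the first hairpin and 178 (1.33%) with the second.

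CLDN7, a claudin of glandular epithelia that binds the adhesion protein EPCAM, was the most abundant of the 3 per length of message. It had 145, 139.9 and 137 CPM in EP300 KD1, against 282, 251 and 275 CPM in NS1. The second hairpin gave 168, 159 and 162 CPM in EP300 KD2, against 296, 284 and 306 CPM in NS2. Groups did not overlap, and the level was 52.2% of control with the first hairpin (log2 -0.94 ± 0.04, edgeR adjusted p = 1.1e-13) and 55.1% with the second (log2 -0.86 ± 0.04, edgeR adjusted p = 4.4e-13). In the GENCODE gene models, the exons of CLDN7 share 269 of 2492 bases with AC003688.1 on the same strand and 38 with ELP5 on the other. Whether AC003688.1 is among the deposited RefSeq counts was not checked. How the authors counted shared reads is not given in the sources used here.

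CLDN4, a claudin of simple epithelia and a receptor of a clostridial enterotoxin, fell less than the other claudins here with the first hairpin. Its values were 69.8, 74.9 and 71.1 CPM in EP300 KD1, against 110.0, 95.8 and 112 CPM in NS1. In the second pair they were 70.6, 72.0 and 67.1 CPM in EP300 KD2, against 128, 119 and 125 CPM in NS2. The shRNA groups did not pass the test against each other (log2 -0.04, EP300 KD2 over EP300 KD1, edgeR adjusted p = 0.51), while the control NS2 was above NS1 (log2 0.22, edgeR adjusted p = 0.0014). The log2 fold change was -0.56 ± 0.05 with the first hairpin (edgeR adjusted p = 6.6e-09) and -0.82 ± 0.05 with the second (edgeR adjusted p = 2.5e-11), which correspond to 67.9% and 56.5% of control.

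Per kilobase of transcript, the summed level of all 24 claudin symbols in the table was 186 ± 2.46 CPM per kb in EP300 KD1, against 377 ± 18.8 in NS1, and 203 ± 4.35 in EP300 KD2, against 395 ± 11.8 in NS2 (SD, n = 3 each). The shRNA sums were thus 49.2% and 51.5% of the control sums. CLDN7 made up 54.7% of the summed difference with the first hairpin and 56.4% with the second, CLDN1 34.5% and 25.3%, and CLDN4 9.68% and 15.4%. These shares rest on 1 transcript length per gene, 1228 bases for CLDN7, whose exons cover 2492 bases in all. A longer length for CLDN7 would lower its part and could change this order, and other lengths were not tried. The share of CLDN1 in the claudin sum was 5.49% in EP300 KD1, against 20.2% in NS1, and 6.86% in EP300 KD2, against 15.8% in NS2. CLDN12, whose product lacks the binding motif for zonula occludens proteins that most claudins carry, took 9.78% in EP300 KD1, against 3.72% in NS1, and 7.42% in EP300 KD2, against 3.80% in NS2. Of the 24, 10 were at 0 in all 12 libraries, among them CLDN3, CLDN5 and CLDN18, where 3 counts would be 0.0658 to 0.0956 CPM.

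**Figure D2:**
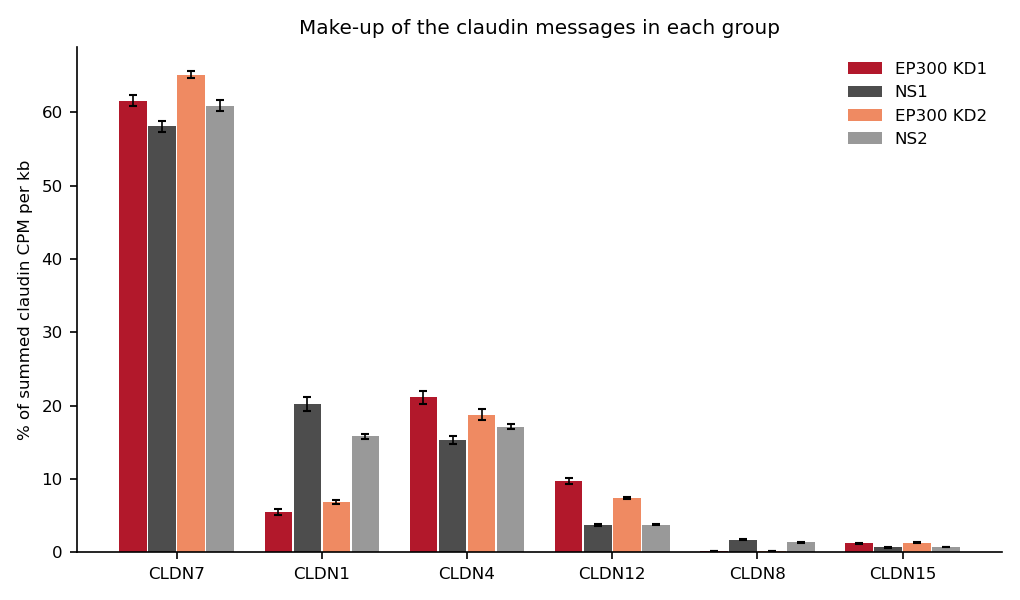
Share of 6 claudin genes in the summed claudin level (CPM per kb of transcript, all 24 claudin symbols) as the mean and SD of 3 libraries per group. CLDN7 is the largest in every group, and CLDN1 holds 5.49% in EP300 KD1, against 20.2% in NS1, and 6.86% in EP300 KD2, against 15.8% in NS2.

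F11R encodes the junctional adhesion molecule JAM-A, an immunoglobulin-type protein at the apical junction, and had the smallest fall of the 6. It had 216, 212 and 218 CPM in EP300 KD1, against 246, 244 and 241 CPM in NS1. With the second hairpin it had 199, 197 and 198 CPM in EP300 KD2, against 264, 264 and 269 CPM in NS2. The libraries of a group lay close together and the groups did not overlap, so that a level of 88.3% of control passed the test (log2 -0.18 ± 0.02, edgeR adjusted p = 9.6e-07), as did 74.4% with the second hairpin (log2 -0.43 ± 0.02, edgeR adjusted p = 4.5e-12). In the GENCODE gene models, 1853 of the 5066 exon bases of F11R are shared with AL591806.3 on the same strand. Whether AL591806.3 is among the deposited RefSeq counts was not checked, and an effect on the reads of F11R was not tested.

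TJP3, the scaffold ZO-3, fell further with the second hairpin than with the first. It had 10.5, 10.6 and 8.74 CPM in EP300 KD1, against 29.3, 28.0 and 30.7 CPM in NS1. It had 3.43, 3.60 and 3.40 CPM in EP300 KD2, against 27.3, 26.9 and 25.7 CPM in NS2. The controls lay close to each other while the 2 shRNA groups were far apart, at 34.0% of control with the first hairpin and 13.0% with the second. The log2 fold change was -1.56 ± 0.06 (edgeR adjusted p = 7.9e-14) with the first hairpin and -2.94 ± 0.07 (edgeR adjusted p = 9.4e-17) with the second, where 84 genes (0.626% of those tested) had a lower value.

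CGN, cingulin, which also binds regulators of the GTPase RhoA, fell with both hairpins. It had 11.1, 9.89 and 9.78 CPM in EP300 KD1, against 20.0, 18.4 and 18.5 CPM in NS1. The second hairpin gave 9.82, 9.97 and 8.70 CPM in EP300 KD2, against 18.5, 19.7 and 20.1 CPM in NS2. Neither the 2 shRNA groups (log2 -0.10, EP300 KD2 over EP300 KD1, edgeR adjusted p = 0.22) nor the 2 controls (log2 0.04, edgeR adjusted p = 0.73) passed the test against each other. The log2 fold change was -0.89 ± 0.07 (edgeR adjusted p = 6.8e-10) with the first hairpin and -1.03 ± 0.07 (edgeR adjusted p = 1e-10) with the second, or 54.0% and 48.9% of control.

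Since the labels do not name which control belongs to which hairpin, the other control was also used for each. All 6 genes were again lower (31.6% of all genes fell in EP300 KD1 against NS2 and 30.7% in EP300 KD2 against NS1). EP300 KD1 over NS2 gave log2 -2.61 for CLDN1, -0.78 for CLDN4, -1.07 for CLDN7, -0.30 for F11R, -1.42 for TJP3 and -0.93 for CGN. EP300 KD2 over NS1 gave -2.45 for CLDN1, -0.60 for CLDN4, -0.73 for CLDN7, -0.30 for F11R, -3.08 for TJP3 and -0.99 for CGN. These comparisons share their libraries with those above and are no independent support.

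The hairpins differed from each other in 5 of the 9 genes. The effect of the second minus that of the first was -1.38 ± 0.10 for TJP3 (edgeR adjusted p = 1.9e-09), -0.26 ± 0.07 for CLDN4 (edgeR adjusted p = 0.0036) and -0.25 ± 0.03 for F11R (edgeR adjusted p = 2.4e-06), all larger falls with the second hairpin. For CLDN1 it was 0.74 ± 0.06 (edgeR adjusted p = 3.1e-09), a larger fall with the first. TJP1, a sparse gene described below, gave the fifth. For CLDN7 the difference was 0.08 ± 0.05 (edgeR adjusted p = 0.25), which was called without NS1 replicate 2 (0.13, edgeR adjusted p = 0.021) and with library totals alone (0.15, edgeR adjusted p = 0.031), and for CGN -0.14 ± 0.09 (edgeR adjusted p = 0.23). Of all genes tested 50.8% passed this test: 29.2% had a lower effect with the second hairpin and 21.6% a higher one, with 57.4% of these calls lower after TMM and 45.2% with library totals alone. EP300 itself was lower with the second hairpin by a log2 difference of -0.18 ± 0.05 (edgeR adjusted p = 0.0049), and this call was lost with library totals alone (-0.11, edgeR adjusted p = 0.063).

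Part of these differences lay between the controls. NS2 over NS1 was called lower for 1 of the 9 genes and higher for 4, where 13.4% and 14.2% of all genes were so called. CLDN1 was lower in NS2 than in NS1 by a log2 difference of -0.29 (edgeR adjusted p = 3.2e-06). CLDN7 was higher by 0.13 (edgeR adjusted p = 0.013), a call lost without NS1 replicate 2 (0.08) or NS2 replicate 3 (0.11), and F11R by 0.12 (edgeR adjusted p = 0.00033), beside CLDN4 and TJP1. Between the shRNA groups themselves, 2 of the 9 genes were lower and 2 higher in EP300 KD2 than in EP300 KD1, where 35.1% and 24.6% of all genes were. EP300 KD2 over EP300 KD1 was 0.45 for CLDN1 (edgeR adjusted p = 8.4e-08), 0.21 for CLDN7 (edgeR adjusted p = 0.00016), -0.12 for F11R (edgeR adjusted p = 0.0001) and -1.52 for TJP3 (edgeR adjusted p = 1.4e-11). From high to low, the order of groups was NS1, NS2, EP300 KD2, EP300 KD1 for CLDN1 and NS2, NS1, EP300 KD2, EP300 KD1 for CLDN7, with every neighbouring pair differing by the test. It was NS2, NS1, EP300 KD1, EP300 KD2 for CLDN4, F11R and CGN, and NS1, NS2, EP300 KD1, EP300 KD2 for TJP3. In these, the shRNA groups did not differ by the test for CLDN4 and CGN, nor the controls for TJP3 (log2 -0.14, edgeR adjusted p = 0.076) and CGN.

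**Figure D3:**
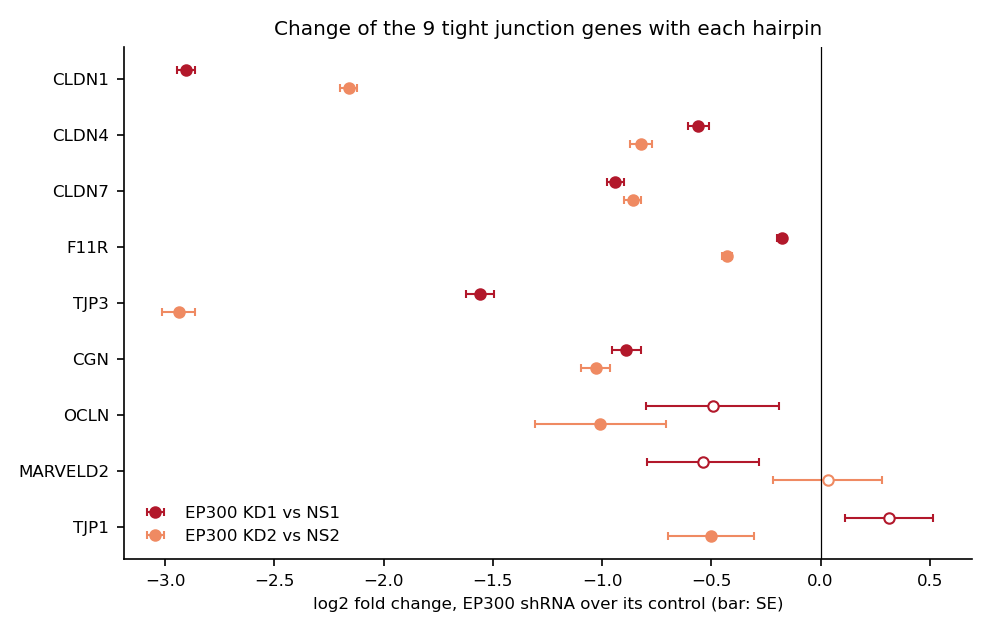
Log2 fold change of each tight junction gene with its SE (x axis) for EP300 KD1 over NS1 and EP300 KD2 over NS2, where filled points passed an edgeR adjusted p under 0.05 and open points did not. CLDN1 lies at -2.90 and -2.16 and TJP3 at -1.56 and -2.94, and the 3 genes at the bottom have wide errors.

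OCLN and MARVELD2 were counted at a level too low to describe these genes. TJP1 had 81 to 208 counts per library, near the 110 to 144 of TJP3 in EP300 KD2, and is uncertain because 1 library stood apart. Many genes around these 3 were sparse as well. OCLN, which encodes occludin, had 209 counts over all 12 libraries, MARVELD2 had 555 and TJP1, the scaffold ZO-1, had 1382. On chromosome 5, CDK7 had 157 counts, RAD17 544, CCDC125 288 and GTF2H2C 4, while TAF9 and AK6 had 0, although CDK7 and TAF9 belong to the general transcription machinery. On one side of this stretch CENPH had 17409 counts and CCNB1 139081. Near TJP1 on chromosome 15, NSMCE3 had 19 counts, FAN1 1215, MTMR10 1037 and KLF13 1498, while HERC2, farther out on the side of NSMCE3, had 12273. These neighbours were chosen after their values were seen, and why these stretches are sparse was not tested.

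**Figure D4:**
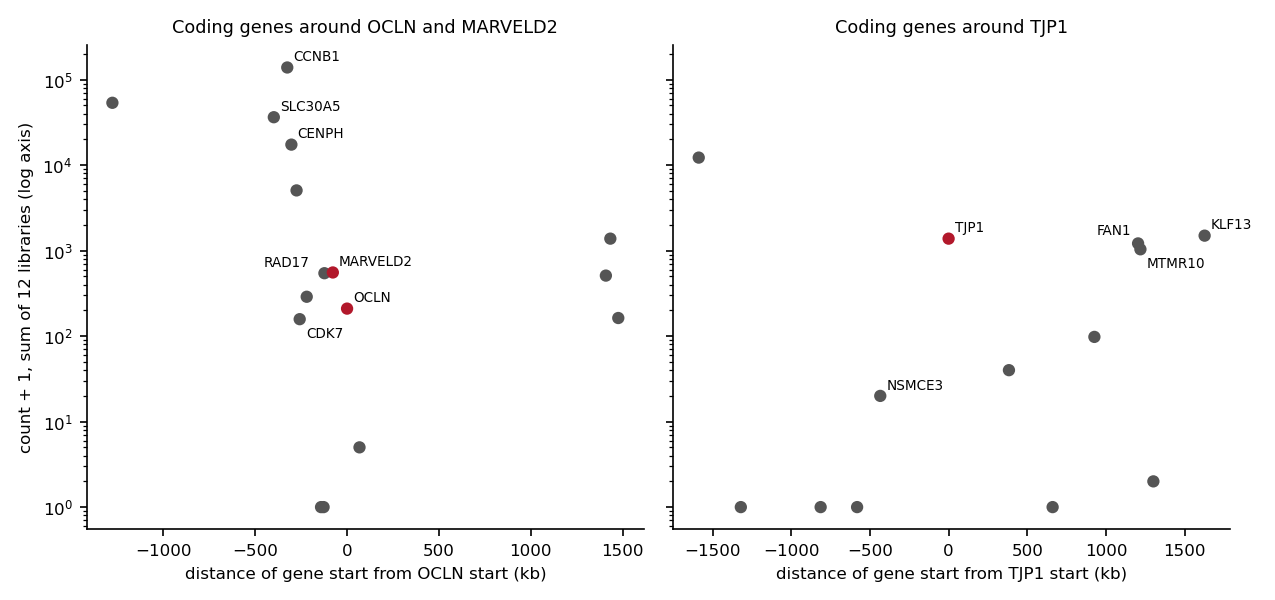
Sum of counts plus 1 over the 12 libraries (log axis) for coding genes around OCLN and MARVELD2 (left) and around TJP1 (right), against the distance of their starts in kb. OCLN, MARVELD2 and TJP1 (red) lie among sparse neighbours, while CCNB1 at the edge of the stretch has 139081.

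The 3 genes are given as deposited, as uncertain values. OCLN had 12, 11 and 16 counts in EP300 KD1, against 13, 17 and 32 in NS1, and 19, 10 and 10 in EP300 KD2, against 29, 23 and 17 in NS2. Its log2 fold change was -0.49 ± 0.31 (edgeR adjusted p = 0.17) with the first hairpin and -1.01 ± 0.30 (edgeR adjusted p = 0.0073) with the second, a call that was lost without NS2 replicate 1 (-0.79, edgeR adjusted p = 0.053). MARVELD2, which encodes tricellulin, a protein of the points where 3 cells meet, had 32, 30 and 41 counts in EP300 KD1, against 71, 49 and 44 in NS1, and 58, 59 and 38 in EP300 KD2, against 34, 39 and 60 in NS2. It gave -0.54 ± 0.26 (edgeR adjusted p = 0.074) and 0.03 ± 0.25 (edgeR adjusted p = 0.93), and the first of these was called without NS1 replicate 3 (-0.80, edgeR adjusted p = 0.0075) and without the filter on low counts (-0.54, edgeR adjusted p = 0.024).

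TJP1 had 3.24, 3.53 and 3.22 CPM in EP300 KD1, against 2.63, 2.49 and 2.89 CPM in NS1, and 3.14, 2.91 and 2.90 CPM in EP300 KD2, against 3.00, 3.31 and 6.39 CPM in NS2. The library NS2 replicate 3 stood apart from all others. The log2 fold change was 0.31 ± 0.20 (edgeR adjusted p = 0.18) with the first hairpin and -0.50 ± 0.20 (edgeR adjusted p = 0.035) with the second, which was lost under 8 of 14 alternatives and became -0.08 (edgeR adjusted p = 0.65) without NS2 replicate 3. The difference between hairpins (-0.82, edgeR adjusted p = 0.022) became -0.39 (edgeR adjusted p = 0.054), and NS2 over NS1 became 0.24 (edgeR adjusted p = 0.20), without that library.

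Other genes of the junction were read from lists. In 5 further lists (other claudins, other membrane proteins, other scaffolds, polarity complexes and regulators), 75 of 76 symbols had an accession and 53 were tested. With the first hairpin 23 fell and 19 rose, where 32.3% of all genes fell and 32.6% rose, and the median log2 fold change of -0.01 was that of all genes tested. With the second 27 fell and 7 rose, where 29.9% of all genes fell and 27.9% rose, with a median of -0.13, against -0.00 over all genes. Counts in the lists below are read against the same shares.

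Of the 7 other claudins tested, 3 fell and 3 rose with the first hairpin (median log2 fold change -0.11), and 4 fell and 0 rose with the second (median -1.60). CLDN8, best known from the collecting duct of the kidney, had 0.693 CPM in EP300 KD1, against 13.4 CPM in NS1, and 0.741 CPM in EP300 KD2, against 11 CPM in NS2, which are log2 fold changes of -4.27 and -3.89. CLDN16 (-0.86 and -2.07) and CLDN10 (-0.93 and -2.11) fell with both and are sparse. The call of CLDN10 with the first hairpin was lost under 4 of 14 alternatives (adjusted p of 0.063 to 0.15, the highest in DESeq2). CLDN9, also sparse, rose with the first (0.58) and fell with the second (-1.60), and the rise was lost under 7 of 14 alternatives, most of all without NS1 replicate 3 (0.33, edgeR adjusted p = 0.29). CLDN12 rose with the first hairpin (0.37, edgeR adjusted p = 2e-08) and had 0.01 with the second (edgeR adjusted p = 0.83), and CLDN23, sparse at 175 counts over 12 libraries and named after its values were seen, rose with the first (0.77) and had 0.71 with the second (edgeR adjusted p = 0.058).

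Of the 7 other membrane proteins, 4 fell and 3 rose with the first hairpin (median -0.24), and 4 fell and 2 rose with the second (median -0.13). CXADR, the coxsackievirus and adenovirus receptor of the junction, had log2 fold changes of -1.14 and -1.33. LSR, the angulin that brings tricellulin to its place, had -0.24 and -0.26. EPCAM, the partner of CLDN7, had -0.40 and -0.13, and MARVELD3 had -0.78 and -0.13. EPCAM lost its call with the second hairpin with library totals alone (-0.06, edgeR adjusted p = 0.064), and MARVELD3 under 10 of 14 alternatives, among them upper-quartile factors (-0.08, edgeR adjusted p = 0.20). CLMP, an adhesion molecule related to CXADR, rose by 1.37 and 0.34, MARVELD1 rose by 0.41 and 0.30, and the sparse ESAM, an adhesion molecule of endothelium, rose with the first hairpin by 1.55.

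Of 12 other scaffolds, 4 fell and 5 rose with the first hairpin (median 0.05), and 6 fell and 3 rose with the second (median -0.18). PATJ fell by 0.30 and 0.27 on the log2 scale, whereas its paralogue MPDZ rose by 0.72 and 0.82. Of the angiomotins, which bind the Hippo effector YAP, AMOTL2 had -0.97 and -0.18 and AMOTL1 rose by 0.38 and 0.22. The 3 other scaffolds that rose with the first hairpin were MAGI3 (0.36), SYMPK (0.09) and AFDN (0.08). AFDN fell with the second hairpin (-0.18), with which MAGI1 rose (0.34). These 4 were named after their values were seen.

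Of 14 genes of the polarity complexes, 6 fell and 5 rose with the first hairpin (median 0.01), and 6 fell and 1 rose with the second (median -0.05). LLGL2, a Lethal giant larvae protein of the basolateral side, had -0.96 and -0.83, whereas its paralogue LLGL1 rose by 0.83 and 0.59. CRB3, the Crumbs protein of the apical side, had -0.57 and -0.69, and PARD3 had -0.12 and -0.17. DLG1 rose with the first hairpin (0.17) and fell with the second (-0.14). PARD6A (0.61), PRKCI (0.07) and PRKCZ (0.16), named after their values were seen, were the other genes that rose with the first.

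Of 13 regulators, 6 fell and 3 rose with the first hairpin (median -0.07), and 7 fell and 1 rose with the second (median -0.20). PRSS8, the membrane protease prostasin, had 45.6 CPM in EP300 KD1, against 56.2 CPM in NS1, and 24.2 CPM in EP300 KD2, against 64.1 CPM in NS2 (log2 -0.30 and -1.40). SPINT1, an inhibitor of the protease matriptase, rose with the first hairpin (0.09) and fell with the second (-0.48), as did ARHGEF2, a RhoA exchange factor that cingulin binds (0.17 and -0.51). SPINT2 fell by 0.23 and 0.38 and CLDND1 by 0.25 and 0.20. ARHGEF18 fell with the first hairpin (-0.36) and had 0.08 with the second, which was called higher under 6 of 14 alternatives. ROCK1 rose with the first (0.23) and had 0.02 with the second (edgeR adjusted p = 0.63). ARHGAP17 (0.20), named after its values were seen, was the gene that rose with the second.

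**Figure D5:**
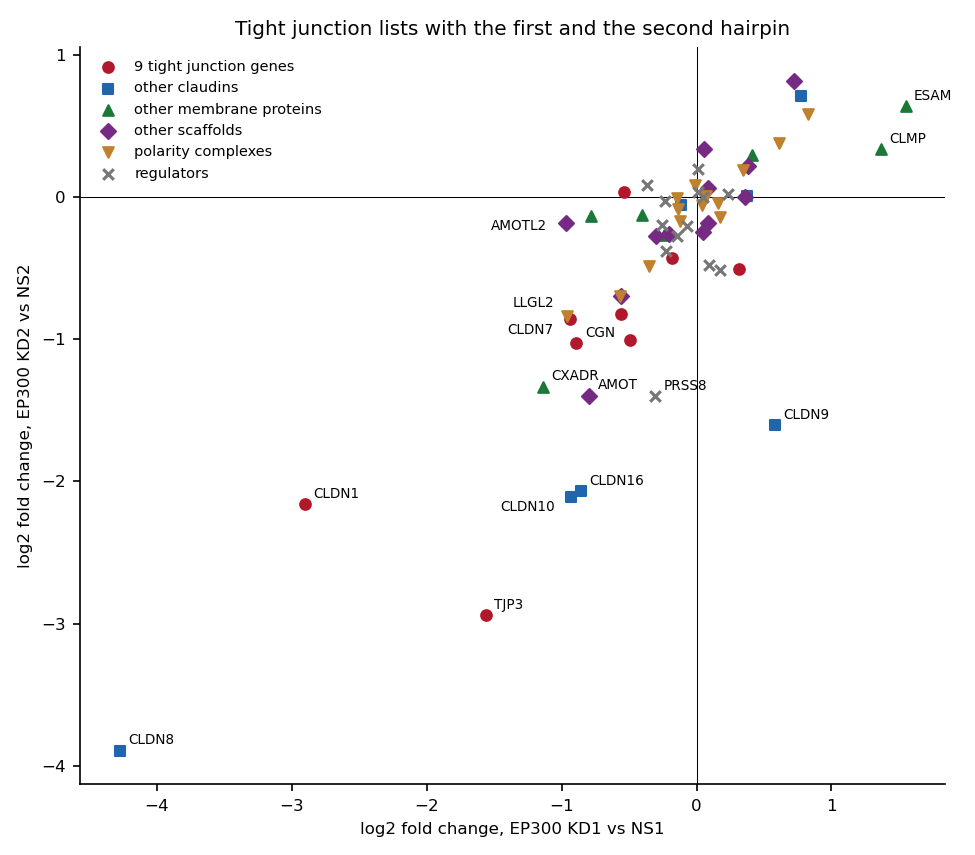
Log2 fold change of each tested gene with the first hairpin (x axis) and the second (y axis), for the 9 tight junction genes and 5 further lists. CLDN1, TJP3 and CLDN8 lie at the lower left, LLGL2 beside CLDN7, and CLMP at 1.37 and 0.34 on the right.

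The other junctions of the lateral membrane are set beside them, again with 32.3% of all genes lower and 32.6% higher with the first hairpin and 29.9% lower and 27.9% higher with the second. Of 9 desmosome genes tested, 8 fell and 1 (DSG2, named after its values were seen) rose with the first hairpin (median -0.31), and 8 fell and 0 rose with the second (median -0.59), with DSC2 at -0.85 and -0.99, DSG3 at -0.63 and -1.33 and PERP at -0.58 and -0.79. Of 12 genes of the adherens junction, 7 fell and 4 rose with the first (median -0.20), and 8 fell and 4 rose with the second (median -0.29). CDH1, E-cadherin, had -0.86 and -1.06, LIMA1 -0.59 and -0.52 and PLEKHA7 -0.57 and -0.49, while NECTIN3 rose by 0.99 and 0.56. CTNNB1, NECTIN2 and VCL, named after their values were seen, rose less, by 0.07 to 0.17. Whether the 9 tight junction genes differ from these lists was not tested.

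The genes whose pattern over the 12 libraries was most like that of each well-counted member were found by the root mean square (RMS) difference of centred log2 CPM. For CLDN1 they were SCEL (RMS 0.15), ELF3 (0.16) and SLCO1B3 (0.19), against a spread of CLDN1 itself of 1.27. For TJP3 they were WFDC2 (0.19), CAPS (0.24) and VAV3 (0.25), against 1.18. CLDN7 had AJUBA (0.06), LLGL2 (0.08) and RHOBTB2 (0.09), against 0.46, and CLDN4 had RGS3 (0.06), CDC42BPG (0.08) and PRAG1 (0.08), against 0.36. F11R had SLC31A1 (0.02), PHKB (0.02) and RETSAT (0.03), against 0.16, and CGN had IFI35 (0.07), EPS8 (0.07) and SHROOM3 (0.08), against 0.47. The 12 libraries share 4 groups, so any genes that move alike between groups come out as near.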

How the data were processed

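RNA was measured in 12 libraries of MCF10AT cells, built with Illumina's TruSeq Stranded mRNA chemistry per the labels' protocols. The authors aligned reads to hg38 with HISAT2 2.1.0 and used featureCounts, per the submitters' processing notes. For featureCounts, the version and the settings for strand and shared reads are not given. The deposited values are raw counts per RefSeq accession, not normalised. Of 29094 accessions, 28134 were named from a RefSeq table of GRCh38.p14 and 485 from GENCODE, and 475 had no name. Replicate libraries differed beyond counting noise (chi-square over degrees of freedom, 1.86 to 4.54), so each was kept.

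Genes were filtered with edgeR's filterByExpr, scaled by TMM and fitted with edgeR 4.0.16 (R 4.3.3), 1 coefficient per group over 12 libraries, with adjustment over all 13424 genes. The common biological coefficient of variation was 0.03, and the procedure was tested on simulated data. Standard errors were derived from the test statistic. Levels per kilobase used the length of the longest GENCODE transcript linked to the RefSeq entry of each gene. Alternatives were other scaling factors, no filter, DESeq2 1.42.0, limma-voom (limma 3.58.1), fits of 6 libraries, a replicate block and leaving out each library, and counting the members without the 3 sparse genes, which was chosen after seeing the data and leaves the 6 that fell with both hairpins. The members and lists were chosen with earlier results of these data known. Named genes are all members, EP300, up to 4 called genes with the smallest p per list and hairpin, and 3 genes nearest in pattern to each member, with exceptions stated beside them. One gene chosen in this way is not reported here.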

Additional observations from a re-analysis of the deposited data

Results flagged for a closer look

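These genes passed edgeR's test of the difference between the hairpins, given as the log2 effect of EP300 KD2 over NS2 minus that of EP300 KD1 over NS1. Among the 9 tight junction genes the difference was -1.38 for TJP3, -0.82 for TJP1, -0.26 for CLDN4, -0.25 for F11R and 0.74 for CLDN1, and that for TJP1 lost its call without NS2 replicate 3 (-0.39, edgeR adjusted p = 0.054). EP300 itself had -0.18. Among the other claudins and membrane proteins it was -2.18 for CLDN9, -1.21 for CLDN16, -0.36 for CLDN12, -1.03 for CLMP, -0.11 for MARVELD1, 0.28 for EPCAM and 0.65 for MARVELD3. Among the other scaffolds and polarity genes it was 0.78 for AMOTL2, -0.16 for AMOTL1, -0.24 for LLGL1 and -0.31 for DLG1. Among the regulators it was -1.10 for PRSS8, -0.68 for ARHGEF2, -0.57 for SPINT1, -0.21 for ROCK1, -0.15 for SPINT2 and 0.45 for ARHGEF18. Among genes of the other junctions it was -0.70 for DSG3, -0.43 for NECTIN3, -0.27 for JUP, -0.25 for CDH3, -0.20 for PERP, -0.20 for CDH1 and -0.15 for DSC2. Of all genes tested, 50.8% passed the same test. For genes other than the 9 and EP300, these differences were not run under the alternatives described below.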

How the results depend on the processing

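For CLDN1, CLDN4, CLDN7, F11R, TJP3 and CGN, the call and the direction held under all 14 alternatives in both hairpin comparisons with no change of sign. Only values that had not passed the test changed sign, in each case with 1 library left out: over these fits MARVELD2 ranged from -0.11 to 0.31 (EP300 KD2 over NS2) and from -0.40 to 0.17 (NS2 over NS1), EP300 from -0.0076 to 0.058 (NS2 over NS1), CLDN12 from -0.0088 to 0.046 and ROCK1 from -0.0073 to 0.054 (EP300 KD2 over NS2). The number of members that fell ranged from 6 to 7 with the first hairpin and from 6 to 8 with the second. The 6 with the second hairpin arose only where OCLN, MARVELD2 and TJP1 were left out of the count. That value was fixed by the choice, since OCLN and TJP1 had been called. Members lower in NS2 than in NS1 numbered 2 in place of 1 with upper-quartile factors, library totals alone, limma-voom and fits of only 6 libraries, through TJP3. Members with a higher effect of the second hairpin numbered 2 in place of 1 with library totals alone and without the filter, through CLDN7, and 1 to 2 with 1 library left out. Members that rose with the first hairpin numbered 1 in place of 0 in the fit of only 6 libraries, through TJP1 (0.31, edgeR adjusted p = 0.026). Members higher in NS2 than in NS1 numbered 2 to 4 with 1 library left out: TJP1 lost its call without NS1 replicate 1, NS1 replicate 2 or NS2 replicate 3, and CLDN7 without NS1 replicate 2 (0.08, edgeR adjusted p = 0.080) or NS2 replicate 3 (0.11, edgeR adjusted p = 0.073). The cause of these changes was not tested. Of 74 values of other named genes in the 2 hairpin comparisons, 7 changed their call or sign under some alternative. Medians of lists, cell type markers and genes named after their values were seen were not run under the alternatives. Nor was the difference between the hairpins for any gene other than the members and EP300, so how far those differences depend on the processing is not known.

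Libraries with the same replicate number did not deviate together (6 pairs, correlations -0.03 to 0.03), so no pairing by number was seen. These correlations weigh all 13424 genes alike, so a shared culture or preparation that moved few genes would not show. Whether such libraries shared a culture or preparation was not tested. With the replicate block, 6 members fell with the first hairpin and 8 with the second, as without it, and over all genes 4367 fell and 4381 rose with the first and 4042 fell and 3760 rose with the second. Low counts limit OCLN, MARVELD2 and TJP1, with 209, 555 and 1382 counts over 12 libraries, and changes in them may have gone undetected. TJP1 is also limited by NS2 replicate 3, without which its SE with the second hairpin went from 0.20 to 0.12.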

Other observations

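Low counts were not particular to OCLN, MARVELD2 and TJP1 in this table. Among coding symbols with 1 accession, the 505 whose RefSeq entry also holds model accessions on further placements had a median of 259 counts over 12 libraries, against 3792 for the 16314 others. Fewer than 1200 counts were found for 62.2% of the 505 and for 43.5% of the others, so sparse genes were common in both. By this limit OCLN (209 counts) and MARVELD2 (555) are sparse, while TJP1 (1382) lies just above it. Whether OCLN, MARVELD2 and TJP1 belong to the class of 505 is not shown here. What this class of genes shares in the authors' counting was not tested.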
